A study of Mus musculus with 21 samples.

Results

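The 8 genes described here carry the intestinal handling of bile acids, from sensing to export. They were chosen by symbol (Gpbar1, Nr1h4, Fgf15, Slc10a2, Fabp6, Slc51a, Slc51b and Abcc3), and each matched 1 of the 43432 gene identifiers of the series. All 8 are protein-coding in the mouse annotation, and their coordinates are on build GRCm38.

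Bile acids secreted by the liver are taken up again mainly in the ileum through the apical transporter ASBT (Slc10a2), bound in the cytosol by the ileal bile acid binding protein (Fabp6) and released into the blood by the heteromeric exporter OSTα-OSTβ (Slc51a and Slc51b). MRP3 (Abcc3) is a basolateral ABC transporter that exports conjugated bile acids and glucuronides. The nuclear receptor FXR (Nr1h4) senses bile acids inside the cell and, in ileal enterocytes, induces Fgf15, a hormone that lowers bile acid synthesis in the liver, whereas GPBAR1 (TGR5) senses them at the cell surface and couples to cyclic AMP. Tuft cells are chemosensory epithelial cells of mucosal tissues and the thymus.

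The series measured poly(A) RNA of sorted cells from naive mice that carried the Flare25 reporter in both copies of Il25 on a C57BL6 background, in 21 libraries of 6 groups. All groups, including the non-tuft cells, carried this allele, and all were sorted as DAPI-, CD45- and EPCAM+ cells. Flare25+ cells came from small intestine (n = 3), colon (n = 4), gall bladder (n = 3), thymus (n = 4) and trachea (n = 4), and Flare25- cells from small intestine (n = 3). A library held the cells of 1 male mouse aged 12 weeks, except that each trachea library pooled 4 mice aged 12 to 16 weeks, and trachea pools 3 and 4 were female. The labels give neither the segment of the small intestine nor a Flare25- group of another tissue. Tissue was released by a different digestion in small intestine, colon and gall bladder than in thymus and in trachea, so tissue, digestion and, in trachea, pooling cannot be told apart.

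Library totals ran from 25739248 to 73574745 counts. Between 52000 and 57000 cells were sorted per non-tuft library and as few as 130 to 453 per trachea library, and the mean correlation between replicates on log2 levels ran from 0.828 in trachea to 0.982 in non-tuft cells. Mitochondrial transcripts held 24.1 to 33.5% of counts in small intestine tuft cells and 4.38 to 5.97% in thymus, and leaving them out of the library totals is given among the alternatives. All 12 listed tuft markers exceeded 1 CPM (counts scaled to a common library total by TMM over the 21 libraries) in every library, non-tuft libraries included. Their summed level was 215.2 to 411.5 CPM in non-tuft cells and higher in all 18 tuft libraries, but it differed between tissues. It was 5236 to 6699 CPM in colon, 6205 to 7662 CPM in thymus and 12620 to 24410 CPM in trachea. In gall bladder it was 21600 to 23310 CPM and in small intestine tuft cells 23030 to 31780 CPM. All 12 enterocyte markers also exceeded 1 CPM in every library of both small intestine groups, at a summed 34320 to 39800 CPM in tuft cells, against 19230 to 20760 CPM in non-tuft cells.

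The promoters of 3 of these genes are shown because they hold matches to the response element that FXR binds, an inverted repeat spelled AGGTCANTGACCT, or to its repeat unit AGGTCA on either strand. The sequences are from RefSeq on build GRCm38.p6, lie upstream of the start and outside annotated transcripts, and carry the matches in capitals.
Fabp6, chr11:43601563-43601812, minus strand: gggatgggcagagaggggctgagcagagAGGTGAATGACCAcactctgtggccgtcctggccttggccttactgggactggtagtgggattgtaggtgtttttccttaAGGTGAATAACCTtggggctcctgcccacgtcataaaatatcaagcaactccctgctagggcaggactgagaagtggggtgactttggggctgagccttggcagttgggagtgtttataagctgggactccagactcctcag
Slc51a, chr16:32487880-32488129, minus strand: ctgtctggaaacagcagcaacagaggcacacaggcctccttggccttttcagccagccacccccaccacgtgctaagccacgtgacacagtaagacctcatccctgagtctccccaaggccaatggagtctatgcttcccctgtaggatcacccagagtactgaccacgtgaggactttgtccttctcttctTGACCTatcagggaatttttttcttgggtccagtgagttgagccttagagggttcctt
Slc51b, chr9:65422956-65423023, minus strand: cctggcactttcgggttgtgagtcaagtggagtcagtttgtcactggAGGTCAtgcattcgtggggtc
The Fabp6 window held 2 matches to the inverted repeat, each with 2 mismatches among its 12 fixed letters, beginning 142 and 222 bases before the RefSeq start, which lies outside the gene boundary in GENCODE. At least 1 such match stood in 0.959% of 32851 mouse promoter windows of 250 bases, and 2 or more in 0.0122%. The single AGGTCA in Slc51b began 21 bases before the upstream end of the annotated gene, and 203 bases before the RefSeq start, which lies 182 bases inside it. The TGACCT in Slc51a, its reverse complement, began 58 bases before the start. That repeat unit in either orientation stood in 14% of windows of 250 bases and in 3.87% of windows cut to 68 bases, the length shown for Slc51b. Windows existed for 6 of the 8 genes. Those of Gpbar1 and Slc10a2 held neither motif in the bases outside transcripts, and the window of Nr1h4 lay wholly inside annotated transcripts. A match is a description of letters and says nothing of binding in these cells.

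**Figure D1:**
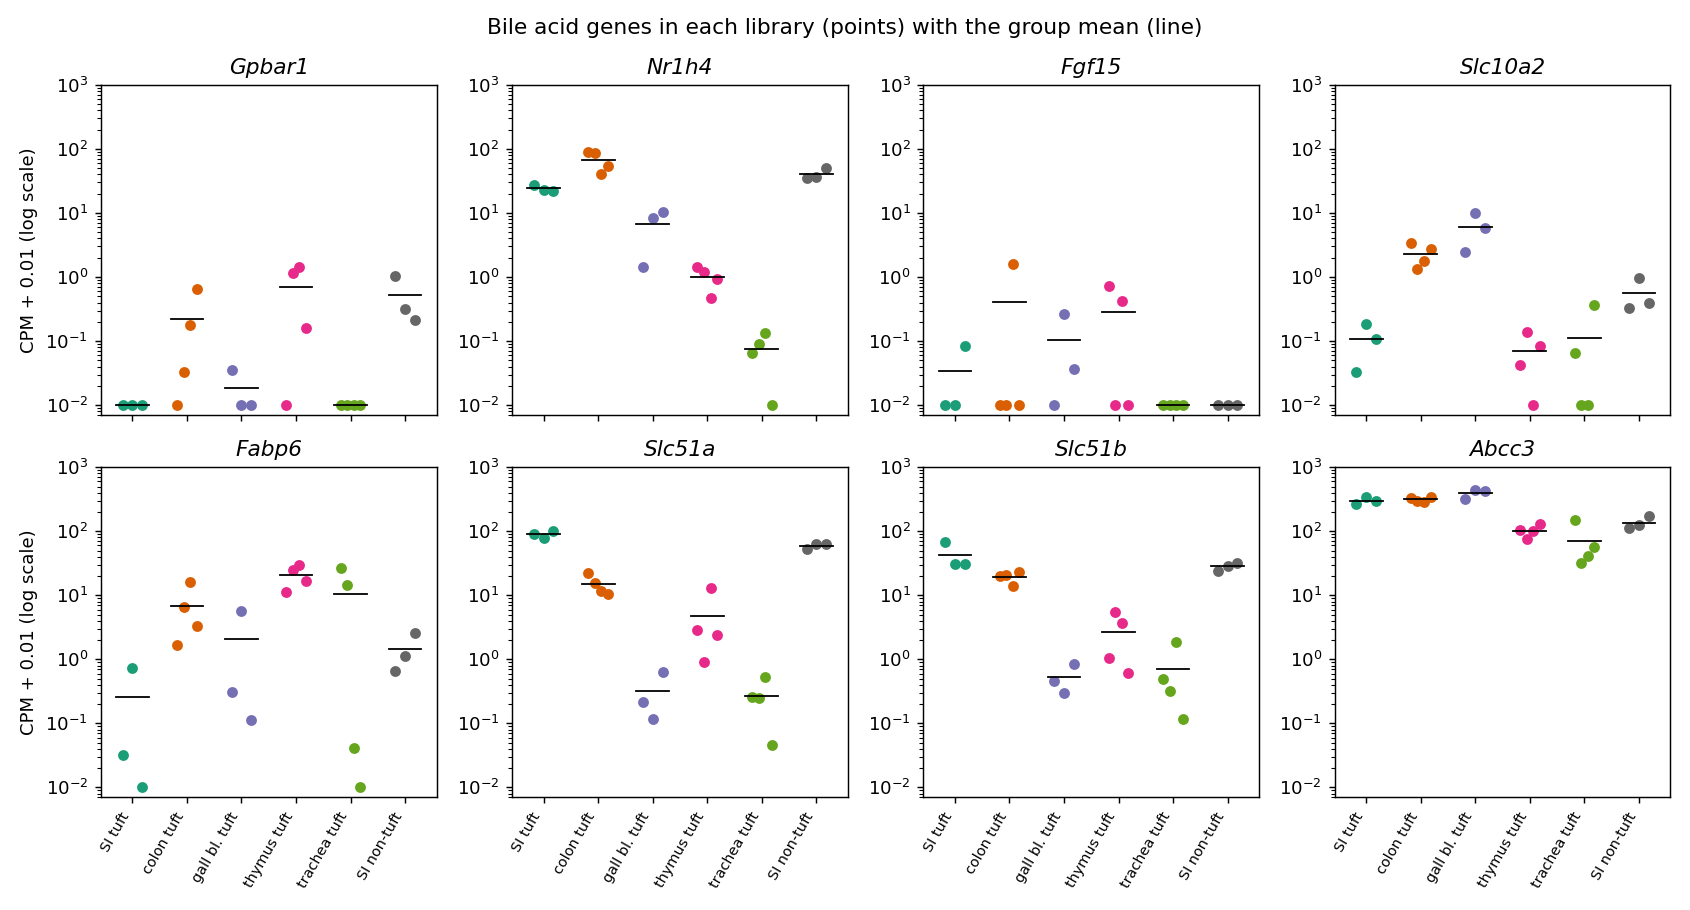
Level of each gene in each of the 21 libraries (points) with the group mean (line), as TMM-scaled CPM plus 0.01 on a log axis, with libraries at 0 drawn at the bottom. Abcc3 lies above 30 CPM in all libraries, Slc51a and Slc51b are high in small intestine and colon, and Fabp6 is highest in thymus and splits the 4 trachea pools.

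Abcc3 exceeded 30 CPM in all 21 libraries and was the only 1 of the 8 genes called higher in small intestine tuft than in non-tuft cells. A call asked for at least a 2-fold difference and for an adjusted p below 0.05 (edgeR quasi-likelihood test, Benjamini-Hochberg adjustment over all genes tested). Abcc3 (chr11:94343295-94392997) stood at 264, 337 and 294 CPM in small intestine tuft cells, against 114, 124 and 174 CPM in non-tuft cells, and no libraries of the 2 groups overlapped. The log2 fold change was 1.19 ± 0.18 (SE) with an adjusted p of 0.00054 by edgeR. The call was lost when all 21 libraries shared 1 fit, where the log2 fold change was 1.12.

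Of the 7 genes tested between these 2 small intestine groups, 1 was called higher (Abcc3) and 1 lower (Gpbar1), while 26.9% of all 16063 genes tested were called in either direction. Gpbar1 passed the filter on low counts through the non-tuft libraries alone, where it was the higher, so nothing is read from its call. The median log2 fold change was -0.02 over the 6 genes with counts in every group and -0.03 over all genes tested. Fgf15 did not pass the filter on low counts.

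Gpbar1 (chr1:74278550-74279624), the membrane receptor, had 0 counts in all 3 small intestine tuft libraries, against 57, 15 and 14 counts in non-tuft cells. The non-tuft mean was 0.511 CPM, and the limit that a count of 0 allows (3 counts) was at most 0.075 CPM per tuft library. No fold is given, because the gene passed the filter on low counts through the non-tuft libraries alone. Non-tuft replicate 1 held 57 of the 86 counts, and the lowest non-tuft library was at 0.204 CPM. Without replicate 1 the gene did not pass the filter on low counts. Markers of enteroendocrine cells, in which GPBAR1 has a known role, also differed between these groups: the summed level of the 10 was 475.8 to 1045 CPM in tuft cells, against 9155 to 13000 CPM in non-tuft cells, and 9 of 9 tested were called lower in tuft cells. None of the 10 was at 0 in every library of either group. Their part in the Gpbar1 result was not tested, and in bulk samples fewer cells of a type and less RNA per cell cannot be told apart.

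Nr1h4 (chr10:89454234-89533585), the intracellular receptor, was measured at 27.0, 23.3 and 22.1 CPM in small intestine tuft cells, against 35.3, 36.3 and 51.1 CPM in non-tuft cells. The groups did not overlap, but the log2 fold change of -0.70 ± 0.18 (SE, adjusted p 0.0107 by edgeR) stayed under the fold asked of a call. Both exporter subunits leaned the other way. Slc51a (chr16:32474504-32487879) had 92.3, 78.4 and 103 CPM in tuft cells, against 52.5, 63.1 and 62.5 CPM in non-tuft cells, a log2 fold change of 0.68 ± 0.14 (SE, adjusted p 0.00383 by edgeR) that was also under that fold. Slc51b (chr9:65412714-65422955) had 67.0, 30.5 and 30.7 CPM in tuft cells, against 24.3, 28.4 and 32.1 CPM in non-tuft cells. These groups overlapped, and the log2 fold change of 0.65 ± 0.28 (SE) did not pass (adjusted p 0.0907 by edgeR). The enterocyte markers were higher in sum in the tuft libraries, as given above, with 2 of 12 called higher and a median log2 fold change of 0.71 over the list, and their part in the levels of Abcc3, Slc51a and Slc51b was not tested.

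The ileal uptake genes were low in both small intestine groups. Slc10a2 (chr8:5083219-5105351) had 1, 7 and 4 counts in tuft cells, or 0.0226, 0.175 and 0.0978 CPM, against 0.323, 0.939 and 0.379 CPM in non-tuft cells. Its groups did not overlap, and its log2 fold change of -2.38 ± 0.95 (SE) did not pass (adjusted p 0.0661 by edgeR). Slc10a2 passed the filter on low counts through the non-tuft libraries alone, so nothing is read from this fold. Fabp6 (chr11:43596049-43601540) had 0.0226, 0.725 and 0 CPM in tuft cells, against 0.647, 1.10 and 2.55 CPM in non-tuft cells, with a log2 fold change of -2.45 ± 1.3 (SE, adjusted p 0.158 by edgeR) and with 1 tuft library inside the non-tuft range. Without small intestine tuft replicate 2 or 4 it did not pass either. Without replicate 3 it was called lower, but the tuft libraries left held 1 and 0 counts. No fold is given for that fit, and nothing is read from its call. Fgf15 (chr7:144896531-144900953) had 0, 0 and 3 counts in tuft cells and 0 in every non-tuft library. For orientation along the gut, Gata4, a transcription factor of the proximal small intestine, averaged 134 ± 36.9 CPM in small intestine tuft cells and 175 ± 8.89 CPM in non-tuft cells (SD, n = 3 each), against means of 0.457 to 8.33 CPM in the other 4 tuft tissues.

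**Figure D2:**
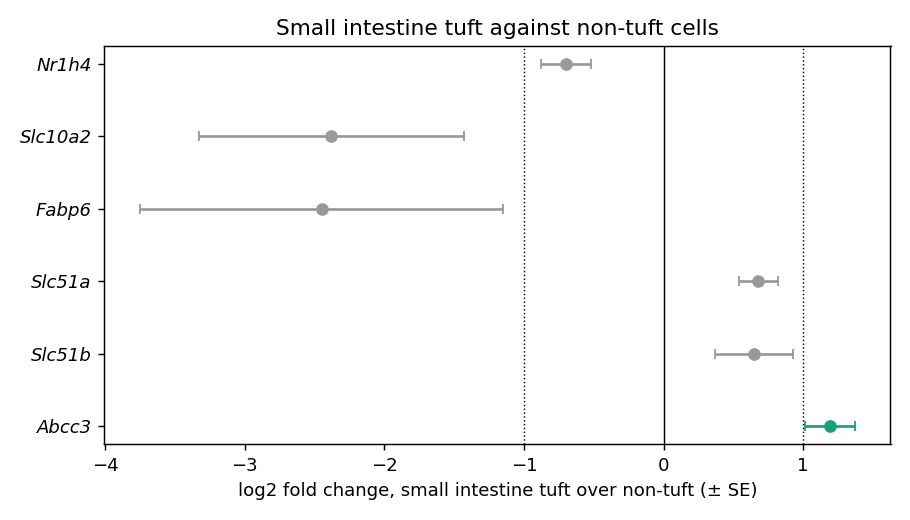
Log2 fold change of small intestine tuft over non-tuft cells (points) with its approximate standard error (bars) for 6 genes, with dotted lines at the fold asked of a call. Abcc3 (green) passed and the other 5 (grey) did not, and Gpbar1 is left out because it had no count in tuft cells.

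For the 5 tissues, the log2 level of each tuft population was compared with the plain average of the other 4 populations, in 1 fit of the 18 tuft libraries with 19850 genes tested. The 5 comparisons share their libraries and are not independent of each other. In small intestine, 3 of the 8 genes were called higher and 0 lower, beside 17.5% of all genes called. In colon 5 were higher and 0 lower (16.5% of all genes), in gall bladder 2 and 2 (21.5%), in thymus 2 and 2 (32.4%), and in trachea 0 and 4 (31%). Gpbar1 is 1 of the 5 in colon and 1 of the 2 higher in thymus. It entered the test through a few libraries of these tissues and is at 0 in both small intestine and trachea, so nothing is read from its calls. Slc10a2 is 1 of the 5 in colon and 1 of the 2 higher in gall bladder. It entered the test through these tissues, so nothing is read from its calls either. Over the 6 genes with counts in every group, the median log2 fold change was 2.04 in small intestine, 2.72 in colon, -0.05 in gall bladder, -0.76 in thymus and -2.72 in trachea. Over all genes it was -0.14 in small intestine, -0.01 in colon, -0.19 in gall bladder, 0.33 in thymus and -0.01 in trachea. Over the 10 pairs of tissues, 37 of 80 combinations of gene and pair were called, beside 23% of combinations over all genes. Nr1h4 and Slc51a were called in 8 of 10 pairs each, Slc51b in 7, Abcc3 in 6, Slc10a2 in 5, Gpbar1 in 2, Fabp6 in 1 and Fgf15 in 0.

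**Figure D3:**
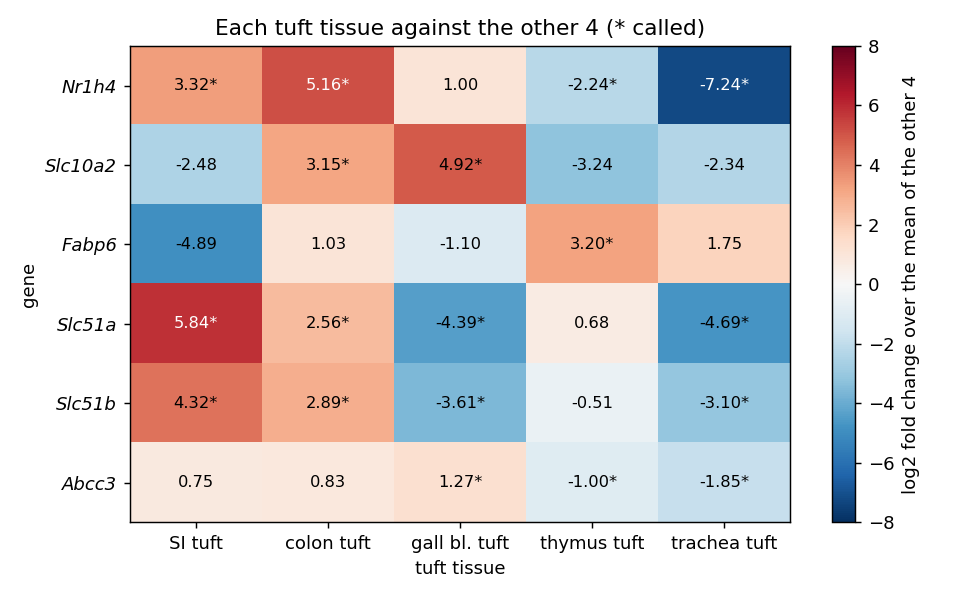
Log2 fold change of each tuft tissue over the mean of the other 4 for 6 genes, with red for higher, blue for lower and an asterisk on called values. Small intestine and colon carry called increases of Nr1h4, Slc51a and Slc51b, and trachea carries called decreases of these genes and of Abcc3; Gpbar1 and Fgf15 are left out because whole groups were at 0.

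FXR was highest in the tuft cells of the gut. Nr1h4 stood at 27.0, 23.3 and 22.1 CPM in small intestine tuft cells, 90.2, 86.8, 40.9 and 53.4 CPM in colon, 1.42, 8.42 and 10.3 CPM in gall bladder, 1.43, 1.20, 0.465 and 0.932 CPM in thymus, and 0.0562, 0.0785, 0.124 and 0 CPM in trachea. The trachea libraries held 11 counts in all. Against the mean of the other tissues it was higher in colon (log2 fold change 5.16 ± 0.45, adjusted p 1.03e-07) and in small intestine (3.32 ± 0.46, adjusted p 2.74e-05), and lower in thymus (-2.24 ± 0.58, adjusted p 0.00485) and trachea (-7.24 ± 0.80, adjusted p 1.16e-06), each with its SE and by edgeR. In the order of levels, colon and small intestine did not differ beyond their spread (adjusted p 0.221), nor did small intestine and gall bladder (adjusted p 0.0903, edgeR). Gall bladder was higher than thymus (log2 fold change 2.59 ± 0.67, adjusted p 0.00795) and thymus than trachea (4.00 ± 0.74, adjusted p 0.000596, edgeR). The 3 genes most like Nr1h4 over the 21 libraries, by Pearson correlation of log2 CPM among 15295 genes, were Ugt1a7c (0.973), Nlrp6 (0.967) and Slc26a3 (0.964). These correlations describe libraries that share tissue and digestion, and no test was made. Slc26a3, a chloride and bicarbonate exchanger, is also on the list of colonocyte markers.

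Colonocyte markers moved with the colon values. Their summed level was 3784 to 5552 CPM in colon tuft cells, against 40.64 to 508.7 CPM in the other tuft tissues, and all 8 were called higher in colon. None of the 8 was at 0 in every library of any group. Of the 12 tuft markers, 8 were called lower and 0 higher in colon, with a median log2 fold change of -1.39, beside 16.5% of all genes called. Likewise all 12 enterocyte markers were called higher in small intestine tuft cells than in the mean of the other tissues, at the summed levels given above, against 243.7 to 1138 CPM in the other tuft tissues. Their part in the colon and small intestine results for Nr1h4, Slc51a and Slc51b was not tested.

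Gpbar1 and Fgf15 were found in a few libraries of colon and thymus and at or near 0 in the rest of the tuft libraries. Gpbar1 had 0, 62, 101 and 8 counts in thymus tuft cells, 0, 1, 9 and 32 in colon, 1, 0 and 0 in gall bladder, and 0 in all 3 small intestine and all 4 trachea libraries. The highest library, thymus replicate 3, reached 1.42 CPM. The groups overlapped, since 1 thymus and 1 colon library were at 0. Without thymus replicate 2, thymus replicate 3 or colon replicate 4, Gpbar1 did not pass the filter on low counts. No fold or test is given because small intestine and trachea were at 0, where 3 counts would correspond to at most 0.075 and 0.106 CPM. Macrophages, known to express GPBAR1, were looked for by 10 myeloid markers. Their summed level was 239.3 to 291.4 CPM in thymus, 20.7 to 36.75 CPM in colon, 47.8 to 135.4 CPM in gall bladder, 26.53 to 54.23 CPM in small intestine and 1751 to 3926 CPM in trachea. In trachea Lyz2 made up most of the sum, with a mean of 2610 CPM. C1qa was at 0 in every library of colon, gall bladder and trachea, and Fcer1g in trachea. In thymus 5 of 9 myeloid markers tested were called higher, where 5316 of all 19850 genes tested were called higher and 32.4% were called in either direction. The part of the myeloid markers in the Gpbar1 levels was not tested.

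Fgf15 was found in single libraries rather than groups, with 0, 0, 86 and 0 counts in colon, 44, 0, 29 and 0 in thymus, 0, 7 and 1 in gall bladder, 0, 0 and 3 in small intestine tuft cells, and 0 in all trachea libraries. No tissue was called, with adjusted p from 0.109 to 1 by edgeR. The colon library with 86 counts, replicate 3, was at 1.60 CPM. The exons of Fgf15 are overlapped on the opposite strand by Gm26793 over 386 bases and by Gm39119 over 26 bases. Gm26793 had 0 counts in all 21 libraries, and the level of Gm39119 was not examined.

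Of the uptake genes, Slc10a2 had its highest mean in gall bladder and Fabp6 in thymus. Slc10a2 was at 2.46, 9.96 and 5.88 CPM in gall bladder tuft cells and at 3.45, 1.30, 1.77 and 2.71 CPM in colon. It lay between 0.0226 and 0.175 CPM in small intestine, 0 and 0.129 CPM in thymus, and 0 and 0.353 CPM in trachea. Small intestine, thymus and trachea held 12, 13 and 12 counts in all, so Slc10a2 passed the filter on low counts through gall bladder and colon. Nothing is read from its calls between tissues, and the size of its folds rests on values near the floor. The log2 fold change over the average of the other tissues was 4.92 ± 0.98 in gall bladder (SE, adjusted p 0.00125, edgeR) and 3.15 ± 0.94 in colon (SE, adjusted p 0.0242, edgeR). Gall bladder and colon did not differ from each other beyond their spread (log2 fold change 1.42 ± 1.4, SE, adjusted p 0.506, edgeR). Colon against trachea, the next in order, had 4.39 ± 1.5 (SE, adjusted p 0.0379, edgeR). The colon call was lost without colon replicate 1 (2.91), colon replicate 4 (3.04) or small intestine tuft replicate 2 (3.02).

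Biliary epithelium, which is known to carry ASBT, was followed by 10 markers. Their summed level was 3837 to 4609 CPM in gall bladder tuft cells, against 999.3 to 3641 CPM in the other tuft tissues. Of 9 tested, 5 were called higher and 1 lower in gall bladder. Muc1 led the list at 1621 ± 202.6 CPM in gall bladder (SD, n = 3), against means of 6.95 to 984 CPM in the other tuft tissues, and Spp1, which encodes osteopontin, averaged 268 ± 111 CPM there (SD, n = 3), against means of 0.134 to 8.81 CPM. Of the 10 only Sctr, the secretin receptor gene, was at 0 in every gall bladder library, as it was in every thymus, trachea and non-tuft library. Hepatocyte markers summed to 120.7 to 199 CPM in gall bladder, mostly Ttr at a mean of 155 CPM, with Fga, Serpina1a and Apoh at 0. The part of these cells in the Slc10a2 result was not tested. The genes most like Slc10a2 over the 21 libraries were the transcription factor Foxp1 (Pearson r 0.898), Clec14a (0.865) and the small Maf protein gene Mafk (0.864). Clec14a had the steepest gall bladder level of these, 111 ± 35.6 CPM (SD, n = 3), against means of 0.145 to 9.25 CPM in the other tuft tissues.

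Fabp6, the cytosolic bile acid binding protein, stood at 11.1, 25.1, 30.0 and 16.5 CPM in thymus tuft cells, 1.69, 6.64, 16.0 and 3.27 CPM in colon, 0.304, 5.69 and 0.104 CPM in gall bladder, and 0.0226, 0.725 and 0 CPM in small intestine. The ranges of thymus and colon overlapped. To set different genes side by side, levels were divided by the joined length of all annotated exons, which need not be the length of the transcript present. That length was 479 bases for Fabp6 and 5698 for Abcc3, and in CPM, without lengths, Abcc3 stood above Fabp6 in every thymus library. Per kb of exon so counted, Fabp6 made up 52 to 69.5% of the sum of the 8 genes in each thymus library. The share was 0 to 83.1% in trachea, 2.58 to 26.6% in colon, 0.269 to 12.2% in gall bladder and 0 to 1.09% in small intestine tuft libraries, so thymus and trachea overlapped. Thymus exceeded the mean of the other tissues by a log2 fold change of 3.20 ± 1.1 (SE, adjusted p 0.0306, edgeR). The call was lost without any 1 of the 4 thymus libraries (2.85 to 3.29), without small intestine tuft replicate 2 (3.03) and without gall bladder replicate 1 (2.98).

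The 4 trachea pools split on Fabp6. Pools 1 and 2 had 27.1 and 14.5 CPM, or 965 and 922 counts, and pools 3 and 4 had 0.0309 and 0 CPM, or 1 and 0 counts. Pools 1 and 2 were of male and pools 3 and 4 of female mice, with 210, 453, 130 and 230 cells sorted, and with 2 pools of each sex, sex and pool cannot be told apart. The part of cell number in the split was not tested. Trachea against the mean of the other tissues had a log2 fold change of 1.75 ± 1.1 (SE, adjusted p 0.256, edgeR). By limma voom with sample weights it was -0.95. With pools 3 and 4 left out, chosen after seeing the data, it was 2.82 and called higher (adjusted p 0.0444, edgeR). That fit dropped the pools in which Fabp6 was low, so nothing is read from its call. No neighbours in the order thymus, trachea, colon, gall bladder and small intestine differed beyond their spread (adjusted p 0.314 to 0.815, edgeR). The genes most like Fabp6 were Flrt2 (Pearson r 0.887), the Notch ligand gene Jag1 (0.864) and Tmem173 (0.854), which encodes STING.

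Both subunit genes of the basolateral exporter OSTα-OSTβ had their highest means in the tuft cells of small intestine and colon. Their lowest means were in gall bladder and trachea, with thymus in between. Slc51a was at 92.3, 78.4 and 103 CPM in small intestine tuft cells, 22.3, 15.3, 11.5 and 10.7 CPM in colon, 2.90, 0.884, 12.9 and 2.42 CPM in thymus, 0.203, 0.107 and 0.627 CPM in gall bladder, and 0.253, 0.236, 0.526 and 0.0353 CPM in trachea. Every small intestine library was above every colon library, and both were above gall bladder and trachea. Against the mean of the other tissues the log2 fold change was 5.84 ± 0.55 in small intestine (adjusted p 1.94e-07), 2.56 ± 0.53 in colon (adjusted p 0.0016), -4.39 ± 0.91 in gall bladder (adjusted p 0.00175) and -4.69 ± 0.81 in trachea (adjusted p 0.000191), each with its SE and by edgeR. Small intestine was also higher than colon directly (2.63 ± 0.80, SE, adjusted p 0.0452, edgeR). Thymus gave 0.68 ± 0.56 (SE, adjusted p 0.386, edgeR), and -0.65 without replicate 3, the library at 12.9 CPM.

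The partner subunit Slc51b was at 67.0, 30.5 and 30.7 CPM in small intestine tuft cells, 19.9, 21.1, 14.1 and 22.9 CPM in colon, 1.06, 5.47, 3.68 and 0.597 CPM in thymus, 0.477, 0.314, 1.85 and 0.106 CPM in trachea, and 0.456, 0.286 and 0.836 CPM in gall bladder. It was called higher in small intestine (4.32 ± 0.58, adjusted p 1.53e-05) and colon (2.89 ± 0.56, adjusted p 0.00089), and lower in gall bladder (-3.61 ± 0.92, adjusted p 0.00804) and trachea (-3.10 ± 0.78, adjusted p 0.00468), as log2 fold changes with SE by edgeR. Small intestine and colon did not differ beyond their spread (adjusted p 0.492, edgeR), colon was higher than thymus (2.72 ± 0.83, SE, adjusted p 0.0202, edgeR), and thymus and trachea did not differ beyond their spread (adjusted p 0.0619, edgeR). By limma voom neither subunit was called lower in gall bladder, nor Slc51b in trachea.

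The subunits rose and fell together over the 21 libraries, with a Pearson correlation of 0.94 on log2 CPM, but not in a fixed ratio. Per kb of exon, Slc51b stood above Slc51a in every library, with a median ratio of 1.75 in small intestine tuft cells, 5.87 in colon, 10.1 in gall bladder, 1.46 in thymus and 11 in trachea, against 2.09 in non-tuft cells. The size of these ratios rests on the joined length of all annotated exons, 3198 bases for Slc51a and 709 for Slc51b. In CPM, without lengths, Slc51a stood above Slc51b in every small intestine library. In colon every library had a ratio of 4.03 or more, above the highest small intestine library at 3.27. The ratios of gall bladder and trachea rest on 1 to 60 counts per subunit and library, and thymus replicate 2 had a ratio of 27.9. The strand used in counting is not given, and an exon of Pcyt1a overlaps Slc51a on the opposite strand over 567 bases. Pcyt1a was at 86.8 ± 10.1 CPM in small intestine tuft cells and 81.4 ± 5.71 CPM in non-tuft cells (SD, n = 3 each). It was at 47.3 ± 10.1 CPM in colon and 28.8 ± 5.89 CPM in thymus (SD, n = 4 each). In gall bladder it was at 30.8 ± 10.9 CPM (SD, n = 3) and in trachea at 41.1 ± 15.5 CPM (SD, n = 4), while Slc51a was at most 0.627 CPM there. The part of shared reads in the Slc51a counts was not tested. Rasl12, which overlaps Slc51b over 91 bases, averaged at most 2.31 CPM in any group. The genes most like the subunits were Aadac, Ces2e and Tmem253 for Slc51a (Pearson r 0.966 to 0.974) and Maob, Ces2e and Ces2a for Slc51b (0.972 to 0.986). Ces2e, a carboxylesterase gene, was on both lists, at 222 ± 16.9 CPM in small intestine tuft cells and 161 ± 22.9 CPM in non-tuft cells (SD, n = 3 each).

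**Figure D4:**
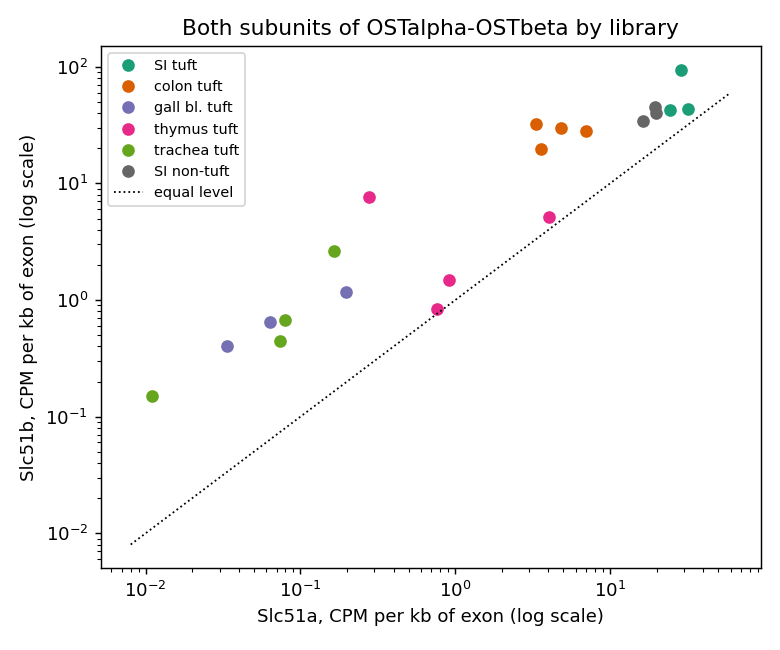
Slc51b against Slc51a in each of the 21 libraries, both as CPM per kb of exon on log axes, with the dotted line at equal levels. All libraries lie above the line, and the colon libraries lie farther above it than the small intestine libraries.

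The exporter gene Abcc3 was high in gall bladder as well as in the gut. Abcc3 stood at 322, 449 and 419 CPM in gall bladder tuft cells, 331, 298, 284 and 347 CPM in colon, 264, 337 and 294 CPM in small intestine, 103, 76.3, 102 and 129 CPM in thymus, and 150, 31.9, 41.1 and 56.9 CPM in trachea. The ranges of the 3 digestive tissues overlapped, and all of them lay above thymus and trachea. Gall bladder exceeded the mean of the other tissues by a log2 fold change of 1.27 ± 0.29 (SE, adjusted p 0.00337, edgeR). Colon at 0.83 ± 0.27 (SE, adjusted p 0.0354, edgeR) was under the fold asked of a call, and small intestine at 0.75 ± 0.30 (SE, adjusted p 0.0854, edgeR) did not pass. Abcc3 was lower in trachea (-1.85 ± 0.32, SE, adjusted p 0.00018, edgeR), and in thymus it sat on the threshold (-1 ± 0.30, SE, adjusted p 0.0128, edgeR). The thymus call was lost by DESeq2 (-0.91), by limma voom (-0.99), with RLE size factors (-0.91) and with the replicate block (-0.99). It was also lost without colon replicate 4 (-0.99) and without trachea replicate 1 (-0.84). In the order of levels the only neighbours that differed were small intestine and thymus (1.41 ± 0.38, SE, adjusted p 0.00965, edgeR). Per kb of exon Abcc3 made up 81 to 95.7% of the sum of the 8 genes in gall bladder libraries, 37.7 to 47.6% in colon, 25.5 to 42.8% in small intestine tuft, 17.8 to 40.7% in thymus and 15.4 to 97.6% in trachea libraries. The genes most like it were the sialyltransferase gene St3gal6 (Pearson r 0.919), the diacylglycerol kinase gene Dgkz (0.912) and the nuclear receptor gene Pparg (0.905). Pparg averaged 56.7 ± 9.73 CPM in small intestine tuft cells and 14.2 ± 2.29 CPM in non-tuft cells (SD, n = 3 each).

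The other genes of bile acid biology were followed in 5 lists. Their counts of calls stand beside the shares of all genes called, which were 17.5% in small intestine, 16.5% in colon, 21.5% in gall bladder, 32.4% in thymus and 31% in trachea, and 26.9% between tuft and non-tuft cells. Lists were not tested against each other or against other genes. Among 16 partners and regulators of the nuclear receptors, 10 were called higher and 0 lower in small intestine tuft cells than in the mean of the other tissues, 6 and 1 in colon, 5 and 2 in gall bladder, 3 and 3 in thymus, and 0 and 11 in trachea, with medians of the log2 fold change of 2.58, 1.24, 0.75, -0.52 and -4.74. Hnf4a, a master regulator of the enterocyte and hepatocyte programmes, averaged 506 ± 52.6 CPM in small intestine, 791 ± 145 CPM in colon, 284 ± 208 CPM in gall bladder, 12 ± 4.91 CPM in thymus and 3.71 ± 1.64 CPM in trachea tuft cells (SD, n = 3 or 4), and was called higher in the first 3 and lower in the other 2. Vdr, the vitamin D receptor, which also binds lithocholic acid, was called higher in small intestine and colon and lower in trachea (log2 fold change -6.54, adjusted p 4.17e-08, edgeR). Malrd1, known in mice to affect how much Fgf15 enterocytes make, was highest in gall bladder at 508 ± 95.5 CPM (SD, n = 3; log2 fold change 4.61, adjusted p 4.12e-08, edgeR). It was also called higher in small intestine tuft cells, at 119 ± 18.2 CPM, against 61.5 ± 15.8 CPM in non-tuft cells (SD, n = 3 each; log2 fold change 1.02, adjusted p 0.00304, edgeR), as 1 of 2 genes of this list called higher there with 0 lower. The other, named after its values were seen, was Nr1h3, the oxysterol receptor LXRα (log2 fold change 1.14, adjusted p 0.00104, edgeR).

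**Figure D5:**
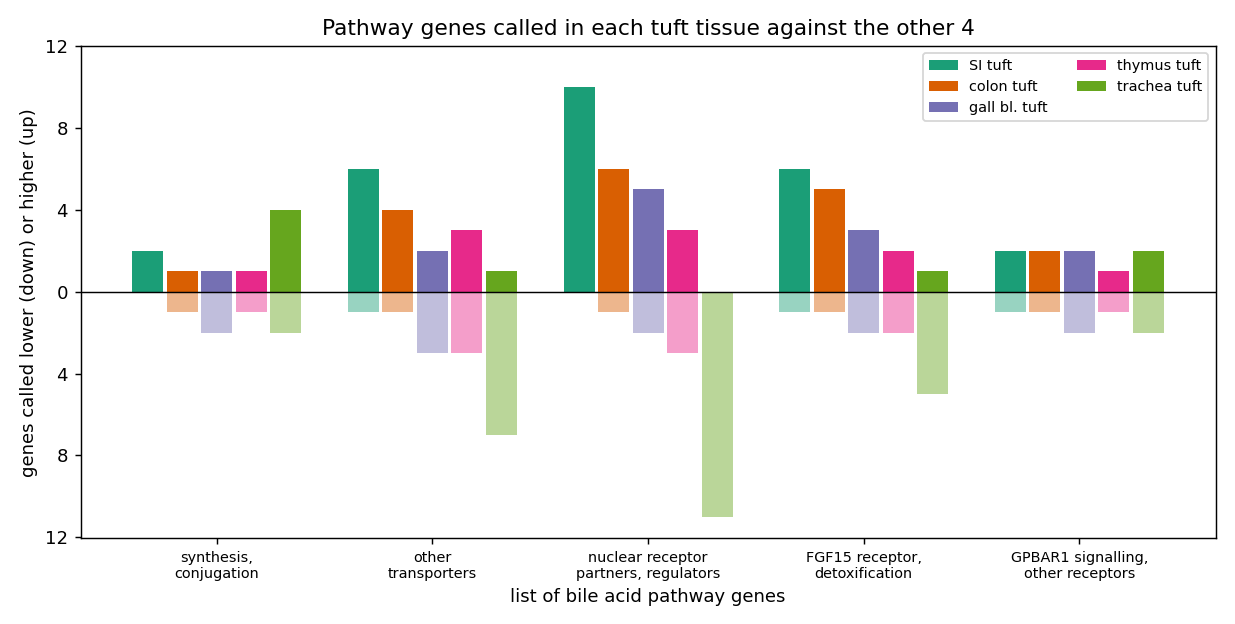
Number of genes of each of the 5 bile acid pathway lists called higher (bars upward, full colour) or lower (bars downward, pale) in each tuft tissue than in the mean of the other 4. Most calls among regulators are upward in small intestine (10) and downward in trachea (11), while the list of GPBAR1 signalling has at most 2 in either direction.

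Of 14 other transporters of bile acids and bile lipids, 11 were tested between tissues. In small intestine 6 were called higher and 1 lower, in colon 4 and 1, in gall bladder 2 and 3, in thymus 3 and 3, and in trachea 1 and 7. Abcc2 (MRP2), an apical exporter of conjugates, reached 488 ± 178 CPM in small intestine tuft cells (SD, n = 3), against means of 2.36 to 8.83 CPM in the other tuft tissues and 451 ± 80.8 CPM in non-tuft cells. Abcg8, a subunit of the sterol exporter, behaved likewise, at 169 ± 11.9 CPM in small intestine tuft cells (SD, n = 3), against means of 0.556 to 7.26 CPM in the other tuft tissues. Abcb1a was called higher in small intestine, colon and gall bladder and lower in thymus and trachea, with its highest mean in colon at 334 ± 53.8 CPM (SD, n = 4). Atp8b1, a phospholipid flippase, was called higher in colon and lower in thymus. Between tuft and non-tuft cells of the small intestine 0 of 9 tested were higher and 2 lower, named after their values were seen: Abcc4 (MRP4), at 0.449 ± 0.382 CPM in tuft cells, against 3.99 ± 0.532 CPM in non-tuft cells (SD, n = 3 each), and Slco2b1, at 21.1 ± 9.53 CPM in tuft cells, against 46.5 ± 6.53 CPM in non-tuft cells (SD, n = 3 each).

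Of the 9 genes of the FGF15 receptor complex and of bile acid detoxification, 8 were tested between tissues, and 6 were called higher and 1 lower in small intestine, 5 and 1 in colon, 3 and 2 in gall bladder, 2 and 2 in thymus, and 1 and 5 in trachea. Cyp3a11, a monooxygenase that hydroxylates bile acids, averaged 354 ± 74.6 CPM in small intestine tuft cells (SD, n = 3), against means of 1.06 to 3.26 CPM in the other tuft tissues. Cyp3a13 and the glucuronosyltransferase gene Ugt2b34 were called higher in small intestine, colon and gall bladder and lower in thymus and trachea. The sulfotransferase gene Sult2b1 was called higher in small intestine and gall bladder and lower in trachea. Between tuft and non-tuft cells of the small intestine 1 of 8 tested was higher and 1 lower, and both belong to the FGF15 receptor complex; they fall outside the naming rule and were named after their values were seen. The receptor gene Fgfr4 averaged 28.9 ± 6.26 CPM in tuft cells, against 6.20 ± 0.883 CPM in non-tuft cells (SD, n = 3 each; log2 fold change 2.29, adjusted p 2.9e-05, edgeR). Its co-receptor gene Klb had 5 counts in the 3 tuft libraries together, a mean of 0.0403 ± 0.0286 CPM, against 301 counts and 1.84 ± 0.922 CPM in non-tuft cells (SD, n = 3 each). Klb passed the filter on low counts through the non-tuft libraries alone, so no fold or test is given.

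Of 15 bile acid synthesis genes, 10 were tested between tissues, with 2 called higher and 0 lower in small intestine, 1 and 1 in colon, 1 and 2 in gall bladder, 1 and 1 in thymus, and 4 and 2 in trachea. Outside trachea these are close to or under the shares of all genes or rest on 2 or 3 genes. Cyp7b1, the oxysterol hydroxylase, averaged 75.4 ± 82.8 CPM in trachea (SD, n = 4) and 7.04 ± 3.44 CPM in thymus (SD, n = 4), against means of at most 0.202 CPM in the other tuft tissues. It was called higher in both, but it passed the filter on low counts through these tissues, so nothing is read from its calls. Cyp39a1, another oxysterol hydroxylase, was called higher in trachea at 61.7 ± 14.7 CPM (SD, n = 4). In small intestine it was lower in tuft cells, at 3.44 ± 1.35 CPM, against 13.3 ± 4.68 CPM in non-tuft cells (SD, n = 3 each; log2 fold change -1.89, adjusted p 0.00295, edgeR), the single gene of this list called there. Cyp27a1, the sterol hydroxylase, was called higher in gall bladder at 146 ± 37.0 CPM (SD, n = 3) and lower in trachea. Hsd17b4, a peroxisomal enzyme of side-chain shortening, was called higher in small intestine and trachea and lower in gall bladder.

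Between tissues the list of GPBAR1 signalling and other membrane bile acid receptors had 2 genes called higher and 1 lower in small intestine, 2 and 1 in colon, 2 and 2 in gall bladder, 1 and 1 in thymus, and 2 and 2 in trachea, of 11 tested, which is close to the shares of all genes or rests on 2 to 4 genes. It was tested for 10 of its 12 genes between tuft and non-tuft cells of the small intestine. Of these, 2 were called higher and 2 lower. Adcy5, an adenylyl cyclase, was at 163 ± 14.4 CPM in tuft cells, against 2.77 ± 1.09 CPM in non-tuft cells (SD, n = 3 each; log2 fold change 5.93, adjusted p 1.73e-07, edgeR). Gnai2, a G protein subunit that inhibits adenylyl cyclase, was at 750 ± 111 CPM in tuft cells, against 169 ± 27.0 CPM in non-tuft cells (SD, n = 3 each; log2 fold change 2.22, adjusted p 7.05e-06, edgeR). The 2 lower, named after their values were seen, were the muscarinic receptor gene Chrm3, at 1.39 ± 0.130 CPM in tuft cells, against 10.3 ± 3.68 CPM in non-tuft cells (SD, n = 3 each), and Rapgef3, which encodes the cyclic AMP effector EPAC1, at 0.244 ± 0.108 CPM in tuft cells, against 7.59 ± 1.91 CPM in non-tuft cells (SD, n = 3 each). Between tissues, Adcy5 was called higher in small intestine, colon and thymus and lower in trachea, where its mean was 0.733 ± 0.430 CPM (SD, n = 4), and Adcy6 was called lower in thymus. Slc9a3r1, an apical scaffold protein gene, was called higher in small intestine and lower in trachea.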

How the data were processed

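Each of the 21 deposited files lists, for 1 library, the whole-number count of every gene, not normalized. Per the labels' protocols, poly(A) RNA was amplified with NuGEN Ovation V2 and made into Nextera XT libraries, which carry no molecular identifiers, so floors cover counting error only. Per the submitters' processing notes, STAR, DESeq2 and the build GRCm38 were used; for versions, counting step and strand setting, nothing is given in the sources used here. Of 43432 identifiers, 42548 matched GENCODE M21, the source of symbols, exon lengths and coordinates, and the other 884 held 0.0986% of counts.

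Counts were tested in R 4.3.3 with edgeR 4.0.16 (filterByExpr, TMM, glmQLFit with legacy = TRUE, glmQLFTest, two-sided, Benjamini-Hochberg), with DESeq2 1.42.0 and limma voom (limma 3.58.1) as alternatives. Calls asked for an adjusted p below 0.05 and a log2 fold change of 1 or more in size. Approximate standard errors were had by dividing the log2 fold change by the root of F. The comparison of small intestine tuft and non-tuft cells used 6 libraries and the tissue comparisons 18. Levels are TMM-scaled CPM over the 21 libraries, and the floor of a count of 0 is 3 counts. Correlations used log2 CPM with a prior count of 2, among genes whose mean reached 1 CPM in a group. The tests were tried on simulated data first. No 2 libraries of a group lay within sampling noise (chi-square per degree of freedom of at least 35.3). The labels name each library as a separate replicate, and beyond mice and pools p-values measure only the spread between these libraries.

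The genes and all lists were chosen with earlier results of these data known. All 8 genes are named, with up to 4 called genes per pathway list by highest group mean and the 3 genes most correlated with each of the 6 genes that reach a mean of 1 CPM in a group. Promoters are from RefSeq tables of GRCm38.p6. Python 3.11.15, pandas 2.3.3 and matplotlib 3.10.9 served for figures. Alternatives comprised RLE size factors, other filters, a replicate block, 1 fit of all libraries and leaving out each library in turn, and, chosen after seeing the data, leaving out mitochondrial transcripts or trachea pools 3 and 4.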

Additional observations from a re-analysis of the deposited data

Results flagged for a closer look

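In 22 combinations of gene and group with 4 libraries, the gap between the most extreme library and its nearest neighbour was set against the range of the group (Dixon's test), and 3 combinations passed it. Chance flags about 1 in 20 groups of normally distributed values, a rate that need not hold for counts near 0. A gene with counts in a single library of a group, as Fgf15 in colon, passes by construction. Fgf15 in colon tuft replicate 3 was at 1.598 CPM (86 counts), while the other 3 colon libraries had 0 counts. Slc10a2 in trachea tuft replicate 4 was at 0.353 CPM (10 counts), with 2, 0 and 0 counts in the other 3 pools. Slc51a in thymus tuft replicate 3 was at 12.9 CPM (915 counts), with 0.884 to 2.90 CPM in the other 3 thymus libraries. No cause of these values was tested.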

How the results depend on the processing

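Between tuft and non-tuft cells of the small intestine 2 of the genes were called, and this number was 1 with a filter of 1 CPM in 3 libraries, 1 with the replicate block, 0 when all 21 libraries shared 1 fit, 1 with mitochondrial transcripts left out (an alternative chosen after seeing the data) and 1 to 3 when a library was left out. With either of the filter of 1 CPM and the mitochondrial transcripts left out, Gpbar1 was not among the genes tested. Over all genes the 21-library fit called 1324, against 4327. For tissues against the other 4, limma voom called 5 genes in place of 3 in small intestine and 2 in place of 4 in gall bladder; over all genes it called 6655 in place of 3469 in small intestine, 2238 in place of 4265 in gall bladder and 3399 in place of 6147 in trachea. Leaving out a library gave 3 to 3 genes called in small intestine, 3 to 5 in colon, 4 to 5 in gall bladder, 2 to 5 in thymus, 4 to 5 in trachea and 31 to 38 over the tissue pairs. The colon number was 3 without small intestine tuft replicate 2 and without colon replicate 4, and the thymus number was 2 without colon replicate 4, thymus replicate 2 or thymus replicate 3. The cause of these changes was not tested, other than genes that left the test. Of 611 single-gene values with a library left out, 581 kept direction and side of the threshold, 24 lost the call, 5 gained it and 1 reversed (Slc51a in thymus without replicate 3, at -0.65, with the other fits up to 0.90). Of 338 under other settings, 312 kept both, 16 lost the call, 9 gained it and 1 reversed (Fabp6 in trachea by limma voom, -0.95). Same-numbered replicates were not treated as pairs, since the correlation of their deviations was -0.024 and -0.013 for the 2 small intestine pairs and exceeded 0.1 in 1 of 32 tissue pairs. As a hint from the data only, all 4 same-numbered colon and thymus libraries correlated at 0.081 to 0.091, against -0.059 to -0.006 for different numbers, and those of small intestine and trachea at 0.047 to 0.146, against -0.086 to 0.039. With the block, the number of genes called was 1 between tuft and non-tuft cells, 3 in small intestine, 4 in colon, 4 in gall bladder, 3 in thymus and 4 in trachea against the other tissues, and 33 over the tissue pairs. For Gpbar1 and Fgf15, a library at 0 allows up to 3 counts, at most 0.107 CPM.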
